A study of Mus musculus with 6 samples.

Results

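Mitosis and spindle genes were examined in the ventricles of *Tbx5ua* knockdown (KD) and wildtype (WT) mouse embryos. The set comprises 48 genes named for their function in chromosome segregation and cell division, and each was taken as the row of the deposited table whose gene name equals the member. All 48 were found among the 23284 genes listed. The table holds 1 group value for WT and 1 for KD, in FPKM, a level of mapped fragments corrected for transcript length and for sequencing depth. The groups were 3 WT and 3 KD embryos at E9.5, of strain C57BL/6. All 6 were tetraploid chimeras, in which ES cells are injected into a tetraploid host so that the embryo proper derives from the ES cells and the host contributes extraembryonic tissue. WT embryos came from unedited ES cells. KD embryos, labelled Tbx5ua -/-, came from C57BL/6 J-derived ES cells in which both alleles of *Tbx5ua*, a long non-coding RNA gene transcribed divergently from *Tbx5*, were edited to hold tandem polyadenylation signals, which stop the transcript prematurely. The edited cells were grown from single colonies, more than one ES cell line was used in the study, and the labels do not say which line gave which embryo. No value of a single embryo is given, so no SD, no interval and no test between the groups can be made from these values, and every difference below is a description without a replicate check.

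Mitosis is driven by cyclin-dependent kinase 1 bound to A- and B-type cyclins. Chromosomes are then condensed, captured at their kinetochores by spindle microtubules and held back by the spindle checkpoint until every kinetochore is attached. The anaphase-promoting complex ends this arrest by marking securin and cyclin B for destruction, after which the central spindle guides cytokinesis. Transcripts of most of these genes accumulate in G2 and M phase and are low in resting cells, so in a tissue their level follows how many cells are cycling as well as expression within each cell. In the embryonic heart at this stage cardiomyocytes, endocardial cells and circulating primitive erythroid cells all still divide.

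The group values of all genes summed to 859452 FPKM (WT) and 877889 FPKM (KD), and the depth of each library is unknown. A gene entered the comparison when the mean of its WT and KD values was at least 1 FPKM. This left 11366 genes, with all 48 mitosis and spindle genes among them. Differences are KD minus WT on the scale of log2(FPKM + 1), which understates changes of low genes. Their median over the 11366 genes was 0.0036. The tissue label was checked against cardiomyocyte markers. *Myl7* had 13643.1 FPKM (WT) and 12907 FPKM (KD), and *Nkx2-5* had 224 and 247 FPKM. The targeted gene *Tbx5ua* is not analysed here, and the group labels were therefore not checked against it.

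Transcripts of mitosis and spindle genes were slightly and broadly lower in KD ventricles. A lower KD value was found in 41 of the 48 genes (85.4%) and a higher one in 7, while 49.3% of all genes compared were lower in KD. The median difference was -0.09, with a middle range (25th to 75th percentile) from -0.21 to -0.04. Single differences were small. A bound of 0.32 in either direction was used to count larger differences. At or below -0.32 were 2 genes, *Aspm* and *Espl1*, against 6.08% of all genes. No member reached 0.32 upward, against 8.23% of all genes. At a lower bound of 1.1-fold, 22 members were lower in KD against 23.6% of all genes, and *Tpx2* alone was higher against 24.9%. A 1.5-fold difference was reached by 0 members in either direction, against 1.36% of all genes lower and 2.05% higher. Summed over the 48 genes, the level was 3702 FPKM (WT) and 3430 FPKM (KD), 92.6% of the WT value. In bulk tissue fewer cycling cells and less RNA per cell cannot be told apart.

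**Figure D1:**
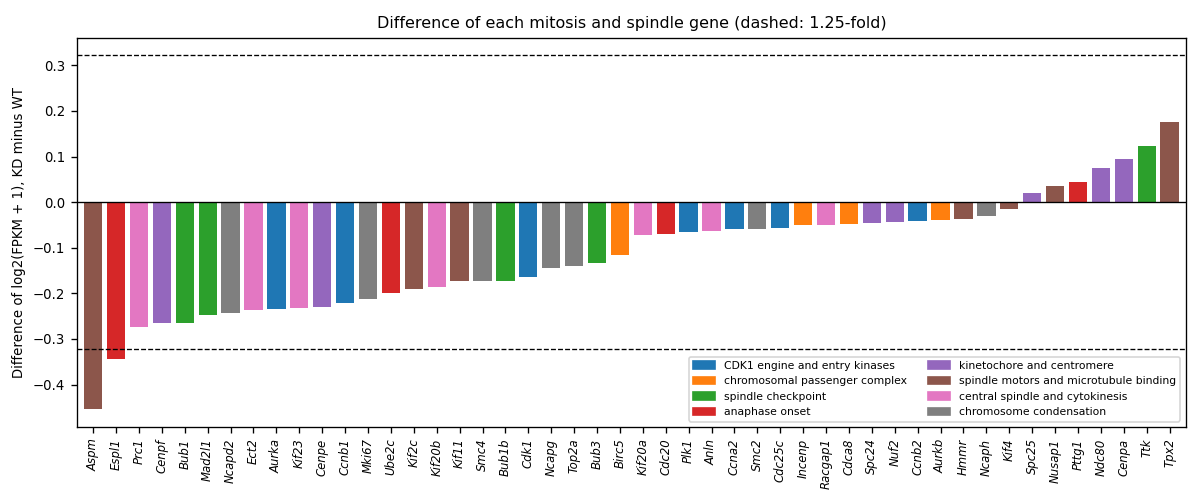
Difference of log2(FPKM + 1), KD minus WT, for each of the 48 mitosis and spindle genes (bars, from 1 group value of WT and 1 of KD), ordered by size and coloured by role, with dashed lines at -0.32 and 0.32. Bars of 41 genes point down and 7 point up, and *Aspm* and *Espl1* pass the lower line.

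Levels of the members spanned a wide range in nearly the same order in both groups. In WT the lowest was *Aspm* with 5.55 FPKM and the highest *Ube2c* with 793 FPKM, and the median was 37.6 FPKM, against 10.0 FPKM over all genes compared. In KD the range was 3.78 to 691 FPKM, again from *Aspm* to *Ube2c*, with a median of 34.7 FPKM. The rank correlation between the WT and KD levels was 0.993 over the 48 genes, which are not independent and share the same libraries. *Ube2c* alone held 21.4% of the summed WT level. Above 100 FPKM in WT were 11 genes and under 10 FPKM were 5 genes. These 5 (*Aspm*, *Cenpe*, *Cenpf*, *Espl1* and *Kif20b*) were lower in KD without exception. All but *Kif20b* are also in the longest bin of transcript length described below, and level was not separated from length. Genes with a mean level from 1 to 1000 FPKM were divided into 6 ranges. The median difference of the members lay below that of the other genes in each of the 6 ranges. The range of 1 to 5 FPKM held 1 member, *Aspm*, and that of 5 to 10 FPKM held 4. In the range of 20 to 50 FPKM, which held the most members, it was -0.07 for 19 members and -0.01 for 1841 other genes.

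**Figure D2:**
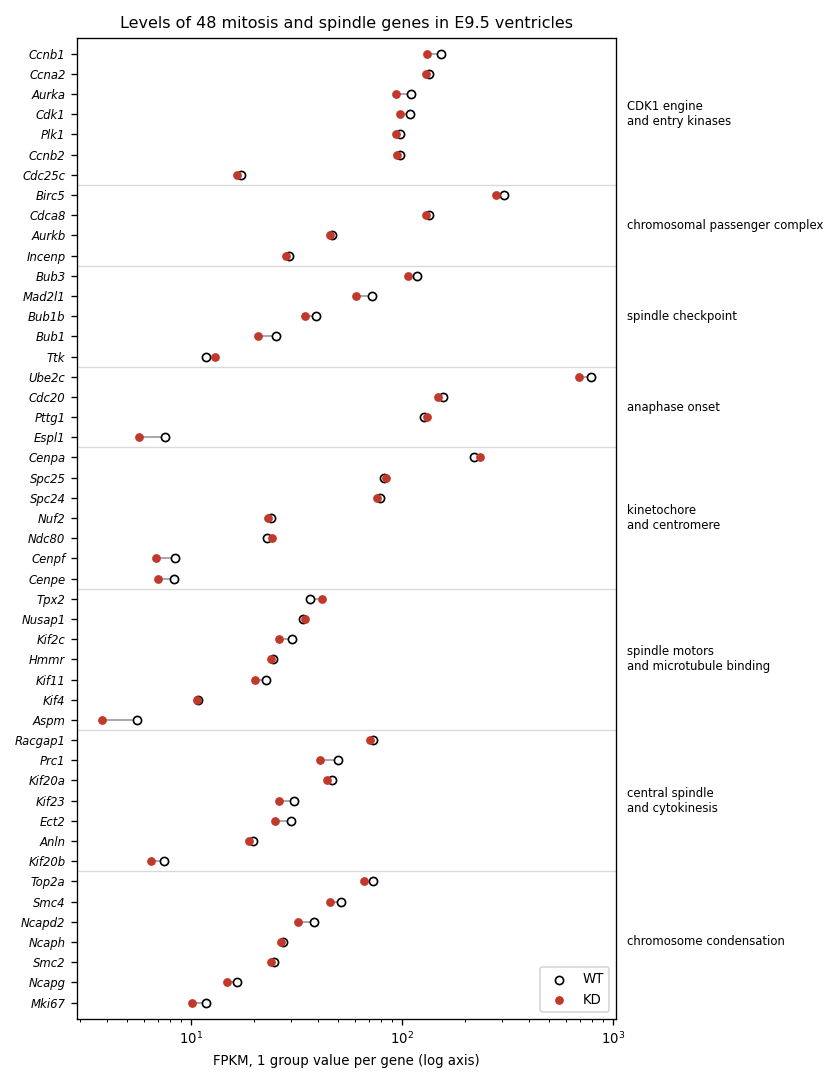
FPKM of the 48 mitosis and spindle genes on a log axis, with 1 open point for the WT group value and 1 filled point for the KD group value, grouped by role and joined by a line. The filled point lies to the left of the open point in 41 genes, and the levels run from 3.78 FPKM for *Aspm* in KD to 793 FPKM for *Ube2c* in WT.

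The genes of the CDK1 engine were lower in KD in 7 of 7 cases, with a median difference of -0.07 (-0.12 without genes that share a locus). *Cdk1*, the kinase that starts mitosis, had 110 FPKM (WT) and 98.0 FPKM (KD), 89.1% of WT. *Ccnb1* encodes cyclin B1, its main mitotic partner, and had 154 FPKM (WT) and 132 FPKM (KD). *Ccnb2* encodes the related cyclin B2, and its levels lay much closer, at 98.0 FPKM in WT and 95.2 FPKM in KD. The difference was thus -0.22 for one B-type cyclin and -0.04 for the other. *Ccna2*, the A-type cyclin of S and G2 phase, had 135 and 130 FPKM. Among the kinases and the phosphatase that act on CDK1 or the centrosomes, *Aurka*, which matures the centrosomes, had the largest difference of the group, from 110 FPKM in WT to 93.6 FPKM in KD (-0.23). The polo-like kinase *Plk1* had 98.3 and 93.9 FPKM. *Cdc25c*, a phosphatase that activates CDK1, was the lowest of the group, with 17.3 FPKM (WT) and 16.6 FPKM (KD).

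The chromosomal passenger complex corrects faulty attachments at the centromere and later acts at the central spindle. All 4 of its genes were lower in KD, by little. Survivin, encoded by *Birc5* on chromosome 11 from 117849237 to 117855743, was the second highest member in WT and had 305 FPKM there and 281 FPKM in KD. The other 3 subunits were within 4% of their WT level. Borealin (*Cdca8*) had 134 FPKM in WT and 96.7% of that in KD, the kinase subunit *Aurkb* had 47.0 and 45.7 FPKM, and the scaffold *Incenp* had 29.4 and 28.3 FPKM. Differences in the complex ran from -0.12 to -0.04, although its subunits differ in level 10.4-fold in WT and 9.92-fold in KD.

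In the spindle checkpoint 4 of 5 genes were lower in KD, with a median difference of -0.17. *Bub1*, a kinase that gathers checkpoint proteins at kinetochores, had 25.3 FPKM (WT) and 20.9 FPKM (KD) (-0.26). *Mad2l1* encodes the protein that, in complex with its partners, holds back CDC20, and it had 72.5 and 60.9 FPKM (-0.25). *Bub1b*, which encodes BUBR1, was at 88.5% of WT, with 39.2 and 34.7 FPKM. *Bub3*, whose product binds both BUB proteins, was at 91.1%, with 118 and 107 FPKM. The exception was *Ttk*, the kinase at the top of the checkpoint, which had 11.8 FPKM (WT) and 13.0 FPKM (KD) (0.12), the second largest difference upward among the 48.

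Of the 4 genes of anaphase onset, 3 were lower in KD. *Espl1*, on chromosome 15 from 102296293 to 102324356, encodes separase, the protease that cuts cohesin. It had 7.52 FPKM (WT) and 5.71 FPKM (KD), 76.0% of WT, a difference of -0.34 that was just past the bound of -0.32. The next gene inside that bound was *Prc1* at -0.27. *Pttg1* encodes securin, the inhibitor of separase, and had 128 FPKM (WT) and 132 FPKM (KD). The protease gene was thus lower in KD, while the gene of its inhibitor was nearly level, at 103% of WT (0.04). *Ube2c*, on chromosome 2 from 164769929 to 164772902, encodes the ubiquitin-conjugating enzyme of the anaphase-promoting complex and had 793 and 691 FPKM (-0.20). Its activator *Cdc20* had 157 and 149 FPKM.

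Kinetochore and centromere genes were the most divided in the main comparison, with 4 lower and 3 higher in KD. After rescaling to the same total they tied with spindle motors and microtubule binding. With genes of like transcript length subtracted, that role was the more divided. *Cenpf* and *Cenpe* encode large proteins that attach kinetochores to microtubules. *Cenpf* had 8.45 FPKM (WT) and 6.86 FPKM (KD) (-0.26), and *Cenpe* had 8.38 FPKM in WT and 83.5% of that in KD (-0.23). The NDC80 complex, the main microtubule anchor of the kinetochore, hardly differed between groups. Its subunits fell into pairs by level in both groups. *Ndc80* had 23.0 FPKM (WT) and 24.3 FPKM (KD) and its partner *Nuf2* had 23.9 and 23.2 FPKM. *Spc24* had 79.1 and 76.6 FPKM and its partner *Spc25* had 82.7 and 83.9 FPKM. Differences in this complex ran from -0.05 to 0.07, and the sign of *Spc25* turned when each group was rescaled to the same total or when genes of like transcript length were subtracted. *Cenpa*, on chromosome 5 from 30666902 to 30674826, encodes the histone H3 variant that marks the centromere. It had 219 FPKM (WT) and 234 FPKM (KD), 107% of WT.

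The genes of spindle motors and microtubule binding held both ends of the whole set. *Aspm*, on chromosome 1 from 139454773 to 139494088, encodes a spindle pole protein known for its mutation in microcephaly. It had 5.55 FPKM (WT) and 3.78 FPKM (KD), 68.1% of WT, a difference of -0.45 (a log2 ratio of -0.55 without a pseudocount). *Tpx2*, on chromosome 2 from 152847964 to 152895321, encodes the spindle assembly factor that activates Aurora A. It had 36.8 FPKM (WT) and 41.7 FPKM (KD), a difference of 0.18, while *Aurka* differed by -0.23. The motor genes had lower values in KD, although the sign of *Kif4* turned when genes of like transcript length were subtracted. *Kif11* encodes the motor that pushes the spindle poles apart and had 22.8 and 20.1 FPKM, and *Kif2c*, which encodes a microtubule depolymerase, had 30.1 and 26.3 FPKM. Nearly level were *Kif4*, a chromosome-bound motor gene on chromosome X with 10.8 and 10.7 FPKM, and the microtubule-binding genes *Hmmr* (24.7 FPKM in WT, 97.3% of that in KD) and *Nusap1* (33.9 and 34.8 FPKM).

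In the central spindle and cytokinesis group 7 of 7 genes were lower in KD, and its median difference was -0.19, the lowest of the 8 roles. With genes of like transcript length subtracted it was -0.15, and the spindle checkpoint was then lowest at -0.16. *Prc1*, which bundles antiparallel microtubules of the central spindle, had 49.8 FPKM (WT) and 41.0 FPKM (KD) (-0.27). *Kif23* and *Racgap1* encode the subunits of centralspindlin. *Kif23* had 31.0 and 26.3 FPKM and *Racgap1* 73.2 and 70.7 FPKM, so the ratio between their levels was 2.36 in WT and 2.69 in KD. *Ect2*, the exchange factor that centralspindlin recruits to activate RhoA, had 29.8 and 25.1 FPKM. *Kif20b* had 7.51 and 6.48 FPKM. *Anln*, whose product anillin anchors the contractile ring, had 19.8 and 18.9 FPKM, and the midzone motor gene *Kif20a* had 46.5 and 44.2 FPKM, which were the differences nearest to 0 in the group after *Racgap1*.

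Chromosome condensation genes were also lower in 7 of 7 cases, with a median difference of -0.14. The condensin I genes differed unequally. *Ncapd2* had 38.4 FPKM (WT) and 32.3 FPKM (KD) (-0.24), whereas *Ncaph*, the subunit that bridges the SMC heads, had 27.3 and 26.7 FPKM (-0.03). The ATPase subunit genes *Smc4* and *Smc2* had 51.6 and 24.9 FPKM in WT against 45.7 and 23.9 FPKM in KD, and *Ncapg* had 16.5 and 14.9 FPKM. The decatenating enzyme *Top2a* had 73.5 and 66.6 FPKM. *Mki67*, the gene of the proliferation marker Ki-67, which coats mitotic chromosomes, had 11.9 FPKM (WT) and 10.1 FPKM (KD), 85.2% of WT.

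Promoters were read for a feature that the choice of members did not use. Cell cycle genes of G2 and M phase are known to be controlled through the cell cycle genes homology region (CHR), a short element bound by the MuvB core of the DREAM complex, and through nearby CCAAT boxes bound by NF-Y. RefSeq promoters on build GRCm38.p6, from 250 bases before to 50 bases after the start site, were matched by symbol for 40 of the 48 genes. Each was searched on both strands for the CHR as TTTGAA or TTCGAA and for the CCAAT box as CCAAT. A CHR match was held by 32 of the 40 genes (80.0%), against 21.7% of 27025 genes with a promoter and 16.0% of the 8068 of these with a mean of at least 1 FPKM. A CCAAT match was held by 30 (75%), against 41.1% and 43.7%. Both were held by 28 (70.0%), against 8.61% and 6.95%. A match is a description and not a bound site. Of the 47 CHR matches in 43 member promoters, 70.2% began between 50 bases before and 49 bases after the start site, and this share was 25.2% over all promoters. CCAAT matches lay further upstream, with a median position of 74 bases before the start, against 5 bases before it for the CHR. In 1 case the motifs overlapped in a member promoter.

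The following 6 promoters hold both motifs. They belong to the kinase that starts mitosis, a cyclin, the anaphase activator and a polo kinase. The others are those of the gene with the largest difference downward and a gene that was higher in KD. Each of the 6 runs 5′ to 3′ on the gene's strand from 100 bases before to 50 bases after the start site. Capitals mark CHR and CCAAT matches of either strand. The windows are chr10:69352863-69353012 (minus strand) for *Cdk1*, chr9:70421505-70421654 (minus) for *Ccnb2*, chr4:118437294-118437443 (minus) for *Cdc20*, chr7:122159335-122159484 (plus) for *Plk1*, chr1:139454673-139454822 (plus) for *Aspm* and chr5:30666786-30666935 (plus) for *Cenpa*.
Cdk1: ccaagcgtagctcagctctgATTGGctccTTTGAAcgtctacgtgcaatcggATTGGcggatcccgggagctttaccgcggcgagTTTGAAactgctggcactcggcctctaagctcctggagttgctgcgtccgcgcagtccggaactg
Ccnb2: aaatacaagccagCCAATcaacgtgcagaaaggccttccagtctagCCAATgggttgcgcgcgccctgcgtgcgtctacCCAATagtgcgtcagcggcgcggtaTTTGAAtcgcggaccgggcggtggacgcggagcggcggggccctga
Cdc20: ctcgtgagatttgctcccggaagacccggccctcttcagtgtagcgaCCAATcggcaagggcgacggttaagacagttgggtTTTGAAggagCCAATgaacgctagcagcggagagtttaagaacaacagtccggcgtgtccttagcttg
Plk1: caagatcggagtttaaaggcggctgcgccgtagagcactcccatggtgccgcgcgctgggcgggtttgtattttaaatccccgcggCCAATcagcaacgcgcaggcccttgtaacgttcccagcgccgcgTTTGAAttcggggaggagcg
Aspm: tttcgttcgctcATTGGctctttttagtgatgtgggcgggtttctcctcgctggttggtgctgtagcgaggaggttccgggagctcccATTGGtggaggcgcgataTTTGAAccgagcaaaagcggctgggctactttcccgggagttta
Cenpa: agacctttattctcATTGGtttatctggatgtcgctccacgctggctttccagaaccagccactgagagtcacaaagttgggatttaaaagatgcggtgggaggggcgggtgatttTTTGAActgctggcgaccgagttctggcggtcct
*Ccnb2* and *Aspm* carry the CHR just after the start site, at positions 4 and 6, with CCAAT boxes upstream, and *Cenpa* carries it at position 16. *Cdk1* holds 2 CHR matches, at -71 and -15, each preceded by a CCAAT box on the opposite strand. In the printed windows each CHR match has a CCAAT match upstream, although *Cdc20* also holds a CCAAT match after its CHR (at -8 and -18). The 6 genes had differences from -0.45 for *Aspm* to 0.10 for *Cenpa*. Members with a CHR match had a median difference of -0.15 (32 genes, 28 lower in KD) and members with a promoter but no match had -0.08 (8 genes, 6 lower). Those 8 are *Ccnb1*, *Birc5*, *Mad2l1*, *Pttg1*, *Cenpe*, *Nuf2*, *Nusap1* and *Ncaph*, and no match says only that these letters are not in this window.

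**Figure D3:**
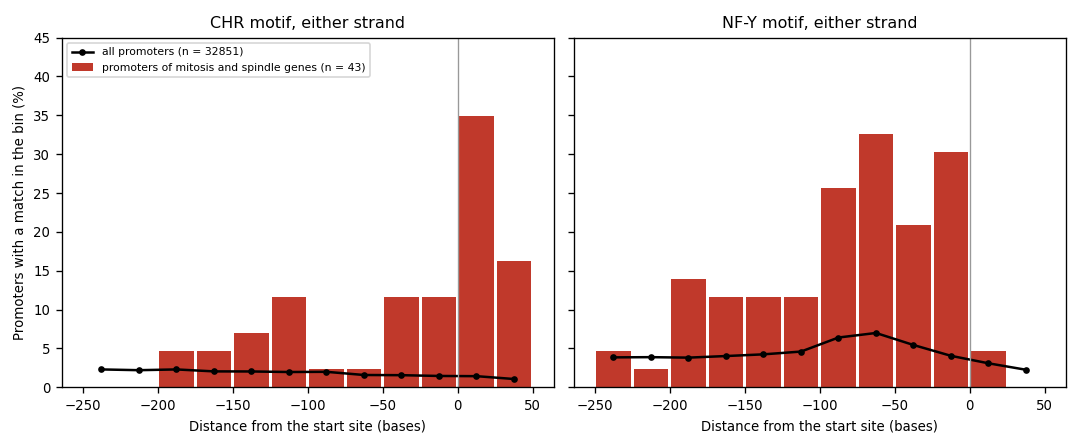
Share of promoters with a CHR match (left) or a CCAAT match (right) in each bin of 25 bases, by distance from the start site in bases, for 43 promoters of mitosis and spindle genes (bars) and all 32851 promoters (line). The CHR bars peak from 0 to 24 bases after the start with 34.9% of member promoters against 1.43% of all, and the CCAAT bars peak from 75 to 51 bases before it with 32.6% against 6.99%.

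Other genes of the cell cycle were compared with the same measure. A list of 105 further mitotic genes had 100 in the table, all above the level bound. Of these, 67 were lower and 33 higher in KD, against 49.3% and 50.7% of all genes, with a median difference of -0.07. Past the bound of 0.32, 5 were lower and 2 higher, against 6.08% and 8.23% of all genes. On the scale of log2(FPKM + 1), the largest differences downward were those of *Mis12*, a kinetochore gene with 15.9 FPKM (WT) and 12.0 FPKM (KD), *Plk4*, the kinase of centriole duplication with 18.9 FPKM in KD, 75.7% of WT, and *Ncapg2*, a condensin II gene with 5.93 and 4.32 FPKM. As a share of WT, *Ncapg2* (72.8%) and *Stil* (74.5%) were lower than *Mis12* (75.1%). The largest upward on that log2 scale were *Cdkn3*, a phosphatase gene whose product dephosphorylates CDKs, with 40.0 and 55.1 FPKM, *Lin52*, a MuvB subunit gene with 5.21 and 7.18 FPKM, and *Mad1l1*, a checkpoint gene with 13.5 and 17.0 FPKM. In a list of 49 DNA replication genes, 35 (71.4%) had a lower and 14 a higher value in KD, against 49.3% and 50.7% of all genes. Their median difference was -0.09. Past the bound of 0.32, 1 was lower and 1 higher, against 6.08% and 8.23% of all genes. On the scale of log2(FPKM + 1), *Mcm10* had the largest difference downward, with 14.6 FPKM (WT) and 10.8 FPKM (KD), followed by *Rpa3* (226 and 183 FPKM) and *Orc1* (5.22 and 4.10 FPKM), although *Orc1* (78.6% of WT) and *Pole* (79.6%) were lower than *Rpa3* (81.1%) as a share of WT. *Prim2*, a primase subunit gene, had the largest difference upward on that scale, with 18.3 and 24.9 FPKM, followed by *E2f1* (2.86 and 3.64 FPKM) and *Chaf1a* (17.1 and 19.8 FPKM).

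Genes of CDK inhibition and cell cycle exit differed in both directions. Of 20 genes, 16 passed the level bound, and 6 were lower (37.5%, against 49.3% of all genes) and 10 higher in KD. Their median difference of 0.05 depended on the processing: it was 0.0072 without genes that share a locus, 0.02 after rescaling to a common total and 0.08 with no filter on low values. *Cdkn1c*, which encodes the CDK inhibitor p57, had the largest difference on the scale of log2(FPKM + 1), with 428 FPKM (WT) and 633 FPKM (KD), 148% of WT. The low gene *Gadd45a* had 1.23 and 2.22 FPKM, a larger ratio at 181% of WT, and *Cdkn2d*, which encodes the inhibitor p19, had 79.1 and 108 FPKM. The largest differences downward among the 16 were those of *Cdkn1a*, which encodes the inhibitor p21, with 23.6 and 18.6 FPKM, *Btg2* (11.9 and 10.4 FPKM) and *Gadd45b* (16.6 and 14.6 FPKM).

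**Figure D4:**
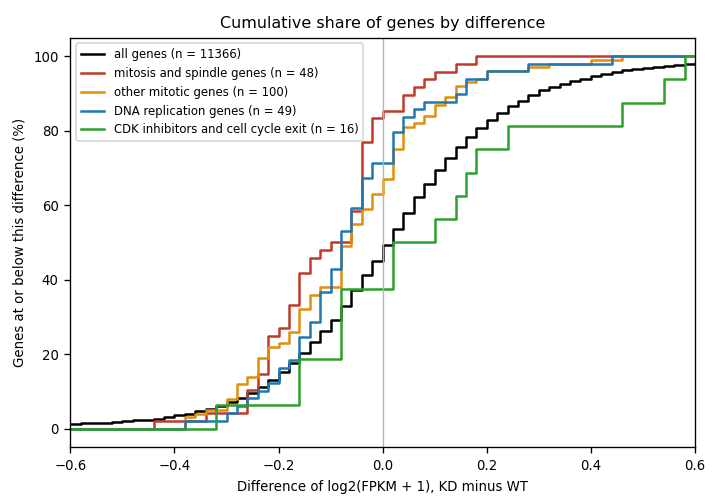
Cumulative share of genes (%) at or below each difference of log2(FPKM + 1), KD minus WT, for the 48 mitosis and spindle genes, 100 other mitotic genes, 49 DNA replication genes, 16 genes of CDK inhibition and cell cycle exit and all 11366 genes compared. At a difference of 0 the curve stands at 85.4% for the mitosis and spindle genes and at 49.3% for all genes, and the curve of the CDK inhibitors lies to the right of the others over most of its upper part.

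Transcript length moved with the difference. Lengths are those of the longest protein-coding transcript in GENCODE release M21, which named 87.2% of the 11366 genes and all 48 members. They need not be those of the transcripts quantified. For *Mad2l1* the 7557 bases exceed the span of its listed locus, on chromosome 6 from 66535468 to 66540991. That length placed *Mad2l1* in the longest bin and entered the correlation and the subtraction below. In 8 bins of length the median difference of other genes went from 0.06 in the shortest to -0.04 in the longest. Among the members the rank correlation between length and difference was -0.51 over 48 genes, against -0.15 over 9858 other genes, in both cases across genes of the same libraries. Members were present in 7 of the 8 bins, and their median lay below that of the other genes in each of the 7. In the longest bin it was -0.26 for 6 members, among them *Aspm*, *Espl1*, *Cenpf*, *Cenpe* and *Mki67*, against -0.04 for 1233 other genes. With the median of genes of like length subtracted, an alternative chosen after seeing the data, 41 of 48 members were below 0, with *Spc25* now among them and *Kif4* no longer, and the median was -0.10. *Aspm* then stood at -0.40 and *Espl1* at -0.31, the latter no longer past the bound of -0.32.

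**Figure D5:**
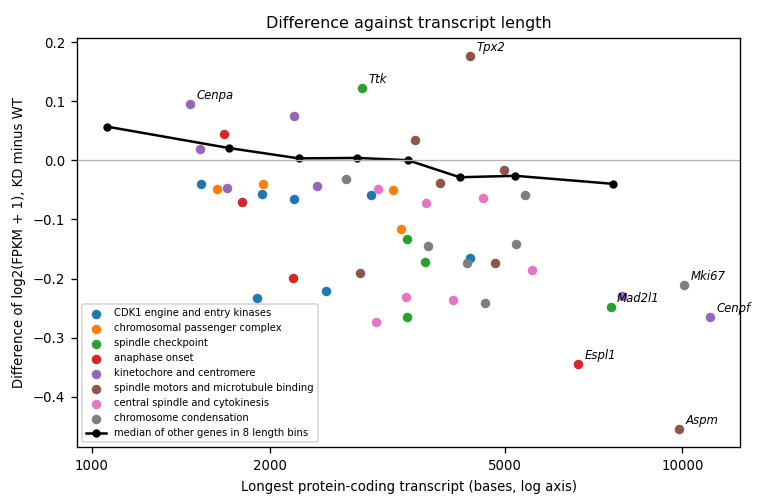
Difference of log2(FPKM + 1), KD minus WT, of each mitosis and spindle gene against the length of its longest protein-coding transcript in bases (log axis), coloured by role, with a line through the median of other genes in 8 bins of length. The line goes from 0.06 to -0.04, the 6 members of the longest bin have a median of -0.26, and the lowest point is *Aspm* at -0.45.

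Marker genes of the cell types in the sample also differed between groups, and their part in the result was not tested. Epicardial markers summed to 47.0 FPKM (WT) and 96.0 FPKM (KD). Of these, 6 of 6 genes above the level bound were higher by at least 0.32, against 8.23% of all genes. Endocardial markers summed to 356 and 438 FPKM. Of 10 genes, 7 were higher and 3 lower in KD, against 50.7% and 49.3% of all genes. By at least 0.32, 2 were higher, against 8.23% of all genes. The highest endocardial marker, *Plvap*, had 129 FPKM (WT) and 179 FPKM (KD), and *Nfatc1* was at 83.3% of WT. The sums of 12 cardiomyocyte markers, 40632 and 41843 FPKM, and of 8 erythroid markers, 11452 and 11530 FPKM, were nearer to each other. Lower in KD were 8 of the 12 and 4 of the 8, against 49.3% of all genes compared. Macrophage and leukocyte markers summed to 21.8 and 17.0 FPKM, nearly all of it *Lyz2*, while *Ptprc* and *Adgre1* (listed as *Emr1*) were at 0.0115 FPKM or below in both groups. Hepatic and yolk sac markers summed to 0.613 and 1.38 FPKM, with *Alb* and *Fgb* listed at 0 in both groups. Pluripotency markers summed to 1.89 and 1.52 FPKM. Of the 48 genes, 8 share their locus in the table with other genes, among them *Ccna2* with *Exosc9*, *Cdc20* with *Elovl1* and *Nusap1* with *Oip5*. Smart-Seq2 libraries do not keep strand, so reads from overlapping genes cannot be told apart and these values are less certain. Without such genes 34 of 40 members were lower in KD, with a median difference of -0.12.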

How the data were processed

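RNA was extracted from heart ventricles of 3 WT and 3 KD tetraploid chimeric embryos at E9.5, and single-end libraries were made from 10 ng of total RNA by Smart-Seq2 (preamplification for 12 cycles, enrichment for 9). Per the labels, TopHat, Bowtie2 and Cuffdiff were used on build mm10, and their versions and the annotation are not given in the sources used here. The authors deposited 1 Cuffdiff table with 1 FPKM value per gene for WT and 1 for KD (named KO there). Its columns of fold changes, test statistics, p-values and q-values hold the comparison made in the study and were not used. There were 0 further columns of single samples. Groups were taken from sample titles. A gene was kept at a mean of at least 1 FPKM, and differences were taken on log2(FPKM + 1), with no test, since each group has 1 value. The table's locus starts count from 0 and are printed with 1 added. Members, role groups and lists were chosen with earlier results of these data known. Every member could be named, with values for members past the bound of 0.32 and for the extremes of each role, and of the other lists the 3 largest differences in each direction. All 48 members are given. The scripts were tested on simulated data. Alternatives were pseudocounts of 0.1 and 0, other level bounds, folds of 1.1 and 1.5, median centring, rescaling to a common total (TPM), leaving out shared loci and, chosen after seeing the data, subtraction of the length trend and other promoter backgrounds. Python 3.11.15, NumPy 2.4.6, pandas 2.3.3, SciPy 1.17.1 and Matplotlib 3.10.9 were used.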

Additional observations from a re-analysis of the deposited data

How the results depend on the processing

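The count of members lower in KD stayed between 40 and 42 where every member or every member but *Aspm* was kept, and was 34 of 40 without genes that share a locus. The share of all genes lower in KD was at most 50% under these alternatives, except that rescaling to a common total, which gave the 42, moved it to 55.1% and the median of all genes from 0.0036 to -0.0239. All 8 role medians stayed below 0 under the 8 alternatives run on them. Role medians that moved by over 1.5 times were those of the CDK1 engine (-0.0657, and -0.115 without shared loci), the chromosomal passenger complex (-0.049, and -0.0792 rescaled), the kinetochore (-0.0437, and -0.0735 rescaled) and spindle motors (-0.0379, and -0.0676 rescaled, -0.106 without shared loci and -0.0241 with like length subtracted). The number of members at or below -0.32 went from 2 to 1 at a mean of at least 5 FPKM, where *Aspm* drops out, and to 1 with genes of like transcript length subtracted. With a fold of 1.5 it was 0, and with a fold of 1.1 it was 22 lower and 1 higher. The median difference of the members, -0.0941, was -0.0951 without a pseudocount, -0.0721 at a mean of at least 5 FPKM, -0.0977 after median centring, -0.125 after rescaling to a common total, -0.125 without shared loci and -0.0963 with genes of like length subtracted. For other mitotic genes, -0.0721, it was -0.0787 with a pseudocount of 0.1, -0.0797 with none, -0.0757 centred, -0.102 rescaled and -0.0829 without shared loci. For DNA replication genes, -0.0854, it was -0.116 rescaled and -0.0834 with like length subtracted. For CDK inhibitors and cell cycle exit, 0.0477, it was 0.0817 with no filter on low values, 0.0444 at a mean of at least 5 FPKM, 0.0441 centred, 0.0223 rescaled, 0.00715 without shared loci and 0.0414 with like length subtracted. Without replicate values a median was counted as moved when it changed at the second decimal. Rescaling turned the sign of *Spc25*, and subtracting like length turned *Spc25* and *Kif4*. No paired analysis was possible because each group has a single value and none is given per embryo, and for the same reason no embryo could be left out. Since depth is unknown, the counting error of the members under 10 FPKM is unknown too.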

Other observations

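The promoter motifs were also counted in the other lists, as a description. A CHR match was held by 47.4% of 78 other mitotic genes with a promoter, by 17.9% of 39 DNA replication genes, by 12.5% of 16 genes of CDK inhibition and cell cycle exit and by 8.33% of 12 cardiomyocyte markers. CCAAT matches did not order the lists in this way, with 62.8%, 61.5%, 62.5% and 66.7% in the same order. Counting each start site apart in place of each gene gave a CHR match in 81.4% of 43 promoters of mitosis and spindle genes and in 19.2% of 32851 promoters in all.

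The spread of differences within a complex, from its lowest to its highest gene, was 0.08 in the chromosomal passenger complex (4 genes), 0.12 in the NDC80 complex (4), 0.18 in centralspindlin and between the B-type cyclins (2 each), 0.21 in condensin I (5) and 0.39 in the spindle checkpoint (5). As levels, the highest and lowest gene differed 10.4-fold in WT and 9.92-fold in KD in the chromosomal passenger complex, 3.60-fold and 3.62-fold in the NDC80 complex, 3.12-fold and 3.07-fold in condensin I, 9.95-fold and 8.26-fold among the 5 spindle checkpoint genes and 1.57-fold and 1.39-fold between the B-type cyclins. Without values of single embryos the spread of these ratios is unknown.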
